A study of Homo sapiens with 12 samples.

Results

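HERC3, HOMER2, PMEPA1, NDRG1, ZBTB10, MAF, F5, PPAP2A, CENPN and TNS3 were chosen as androgen-induced genes outside the kallikrein family, and their transcripts were followed in LNCaP cells with and without silencing of PXN. The set holds 10 of the 36137 genes in the count table, and all 10 were among the 18468 genes that passed the low-count filter and were tested. They were chosen from these data because their levels were higher with DHT when the cells carried the non-specific siRNA, so that response is a description here and supports nothing. MAF goes against that label: its DHT difference did not pass with either siRNA (adjusted p 0.156 with non-specific siRNA and 0.996 with PXN siRNA by edgeR). LNCaP is an established androgen-sensitive human prostate cancer line from a lymph node metastasis. PXN encodes paxillin, an adaptor protein of focal adhesions. The 4 groups of 3 libraries each were PXN siRNA with dihydrotestosterone (DHT) at 2.5 nM, non-specific siRNA with DHT at 2.5 nM, PXN siRNA with ethanol vehicle, and non-specific siRNA with ethanol vehicle. All groups shared 48 h of transfection and 12 h of serum starvation before 24 h of treatment, and all came from the same cell line. The vehicle groups are therefore starved, transfected cells and not untreated ones, and how many PXN siRNAs were used is not stated in the labels.

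DHT is a potent androgen, and androgens raise the transcription of their target genes through androgen response elements in enhancers and promoters. In prostate luminal cells the induced programme covers secreted proteases, lipid metabolism, membrane trafficking and differentiation, and it remains active in LNCaP cells. The 10 genes reach into other roles: ubiquitin ligation (HERC3), scaffolding (HOMER2), restraint of TGF-beta signalling (PMEPA1), stress response (NDRG1), transcription control (ZBTB10, MAF), coagulation (F5), lipid phosphate hydrolysis (PPAP2A, now named PLPP1), the kinetochore (CENPN) and cell adhesion (TNS3).

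Promoter sequence is shown for 3 of the genes because androgen response elements have a defined DNA word. PMEPA1 is shown because it is the gene whose promoters hold that word, in those that hold it, and F5 and HERC3 are shown as examples without it. The RefSeq promoter table (GRCh38.p14, 250 bases before to 50 bases after a start) matched 7 of the 10 genes with 13 promoters. The core of an androgen response element, AGAACA or its reverse complement TGTTCT, was searched on both strands and stands in capitals. It was present in 2 of the 13 promoters, both of PMEPA1, against 14.8% of all 35116 promoters in the table. The full palindrome, AGAACA followed by any 3 bases and TGTTCT, was present in 0 of the 13 and in 1 of the 35116. In the first PMEPA1 promoter (chr20:57711423-57711722, minus strand) the core starts at position 23, with the start as position 1, and in the next (chr20:57710528-57710827, minus strand) it starts at position -229. Neither the other promoters of these 3 genes nor those of TNS3, HOMER2, MAF and CENPN hold it, and they are not printed. F5 (chr1:169586432-169586731, minus strand) and HERC3 (chr4:88592230-88592529, plus strand) hold no such letters in this window, which says nothing about binding elsewhere.
PMEPA1 first promoter: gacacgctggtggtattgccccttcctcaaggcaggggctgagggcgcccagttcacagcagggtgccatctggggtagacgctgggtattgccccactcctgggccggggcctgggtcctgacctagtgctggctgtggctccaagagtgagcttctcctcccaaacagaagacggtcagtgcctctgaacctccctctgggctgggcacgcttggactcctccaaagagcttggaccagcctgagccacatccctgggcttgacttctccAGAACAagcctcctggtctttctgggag
PMEPA1 next promoter: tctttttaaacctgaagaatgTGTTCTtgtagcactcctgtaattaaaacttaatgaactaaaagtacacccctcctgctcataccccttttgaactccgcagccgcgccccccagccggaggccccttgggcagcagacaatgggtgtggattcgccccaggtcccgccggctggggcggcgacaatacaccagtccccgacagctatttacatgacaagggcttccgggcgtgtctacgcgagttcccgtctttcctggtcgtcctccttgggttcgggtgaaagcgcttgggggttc
F5 promoter: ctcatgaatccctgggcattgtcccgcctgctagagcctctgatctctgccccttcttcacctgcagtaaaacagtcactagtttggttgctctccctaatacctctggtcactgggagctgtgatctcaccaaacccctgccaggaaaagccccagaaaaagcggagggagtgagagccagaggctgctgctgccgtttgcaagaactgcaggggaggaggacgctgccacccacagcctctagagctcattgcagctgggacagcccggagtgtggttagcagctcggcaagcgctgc
HERC3 promoter: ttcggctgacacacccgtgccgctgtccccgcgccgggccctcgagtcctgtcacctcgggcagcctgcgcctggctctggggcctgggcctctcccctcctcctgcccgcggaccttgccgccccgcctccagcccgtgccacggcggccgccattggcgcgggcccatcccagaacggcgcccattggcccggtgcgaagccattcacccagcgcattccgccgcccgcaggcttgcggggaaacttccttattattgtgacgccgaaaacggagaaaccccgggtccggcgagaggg

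Levels are given as CPM, the counts scaled to the TMM-adjusted library size, where 1 CPM stood for 33.65 to 38.2 counts at library totals of 34321000 to 38633456 counts. PXN, the silenced gene, had 19.96, 18.1 and 16.6 CPM with PXN siRNA and DHT, against 113, 99.7 and 104 CPM with non-specific siRNA and DHT. Under vehicle it had 15.2, 21.2 and 14.9 CPM with PXN siRNA and 112, 106 and 108 CPM with non-specific siRNA, with no overlap between siRNAs under either treatment. The luminal identity of the cells was present in every library: 9 luminal markers summed to 3276 to 3845 CPM with PXN siRNA and DHT, 6862 to 7343 with non-specific siRNA and DHT, 2660 to 3106 with PXN siRNA and vehicle, and 4212 to 4768 with non-specific siRNA and vehicle. Of 16 markers of basal, stromal, endothelial and immune cells 14 were in the table, and their sum lay at 83.7 to 92.9, 43.2 to 55.5, 77.5 to 93.2 and 42.9 to 51.2 CPM in the same groups, while KRT5, TP63, DCN, PECAM1 and PTPRC never passed 3 counts in a library. Of the 9 luminal markers 7 fell with PXN siRNA under each treatment, and VIM, vimentin, had 30.2 ± 7.10 CPM with PXN siRNA and 4.81 ± 1.66 CPM with non-specific siRNA under DHT. VIM and COL1A1 rose with PXN siRNA under DHT among 7 tested markers of other cells, while KRT14, COL3A1, LUM and PDGFRB fell, and under vehicle 2 rose and 2 fell. Of all tested genes 25% rose and 26.7% fell with PXN siRNA under DHT, and 23.9% rose and 26.3% fell under vehicle. Mitochondrially encoded genes took 8.13% to 8.95% of counts with PXN siRNA and 4.69% to 7.55% with non-specific siRNA. Bulk RNA cannot tell fewer cells of a kind from less RNA in each cell. The part of these differences in the results on the 10 genes was not tested.

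Across the 10 genes, DHT added less CPM with PXN siRNA than with non-specific siRNA in 10 of 10 by the means of all libraries. It did so in 9 of 10 without PXN siRNA vehicle replicate 1, where MAF was the exception. CPM is a scaled share of a library, so the number of transcripts in a cell was not measured. The gain, the mean CPM with DHT minus the mean CPM with vehicle, was 15.8% (NDRG1) to 35.9% (HOMER2) of the gain with non-specific siRNA in 9 of the genes. The 9.41% of MAF rests on a gain of 0.757 ± 11.7 CPM (SE), which ran from -7.03 to 8.70 CPM when single libraries were left out. Both the gain and the DHT over vehicle ratio were lower with PXN siRNA in 3 of 3 replicate numbers for 10 of 10 genes. Over 18332 genes with a ratio in every number, 16% had a lower ratio with PXN siRNA in all 3. No share over all genes was counted for the gain. At an equal fold the gain scales with the vehicle level, so a lower gain alone does not show a lower fold. For PPAP2A a gain of 29.7% stood beside a vehicle level of 36.8% and folds of 1.51 with PXN siRNA and 1.64 with non-specific siRNA. The vehicle level did not share this direction, since it ran from 36.8% of the non-specific level for PPAP2A to 374% for MAF. The non-specific siRNA libraries that chose the genes are part of each of these comparisons, and choosing genes for high values with DHT and low values with vehicle in them favours a larger gain there.

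**Figure D1:**
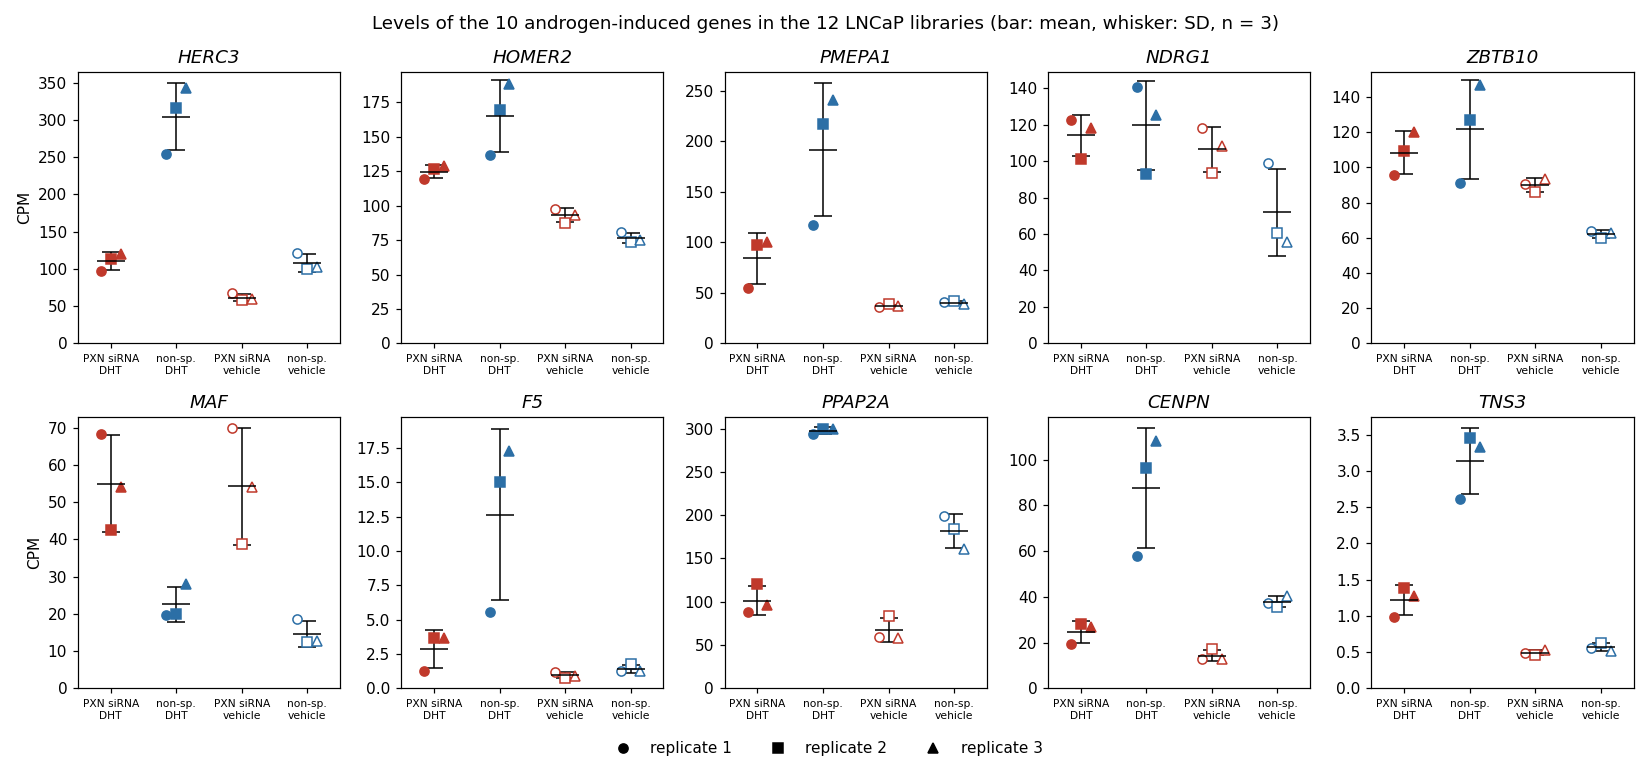
Level of each of the 10 genes in CPM (vertical axis, linear, from 0) in the 12 libraries by group, with symbols for replicate numbers, a bar for the mean and whiskers for the SD of 3 libraries. MAF is the gene whose PXN siRNA libraries all lie above the non-specific ones under both treatments, and HERC3, PMEPA1, F5, PPAP2A and CENPN are those whose PXN siRNA libraries all lie below under both. Of all tested genes 27.3% lie above and 29.6% below without overlap under vehicle, and 29.5% above and 30.4% below under DHT. The shares that do so under both treatments were not counted.

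With edgeR's quasi-likelihood test over all 18468 genes and Benjamini-Hochberg adjustment, HERC3 and TNS3 rose with DHT in PXN siRNA cells, 8 did not pass and 0 fell. Over all genes 0.184% passed upward and 0% downward in this contrast. The median log2 fold change was 0.70 for the 10 genes and -0.01 for all tested genes, and the DHT libraries lay above the vehicle libraries without overlap for 8 of the 10, against 7.02% of all tested genes. With a block for the replicate number 7 of the 10 rose, namely HERC3, HOMER2, PMEPA1, F5, PPAP2A, CENPN and TNS3, while over all genes the block gave 249 higher and 97 lower. In the non-specific siRNA cells, which chose the genes, the median log2 fold change was 1.16. There 9 of the 10 passed upward, all but MAF, against 2.72% of all genes passing upward and 2.16% downward. The DHT libraries lay above the vehicle libraries without overlap for 9 of the 10, all but NDRG1, against 10.2% of all genes, and nothing is read from either count.

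**Figure D2:**
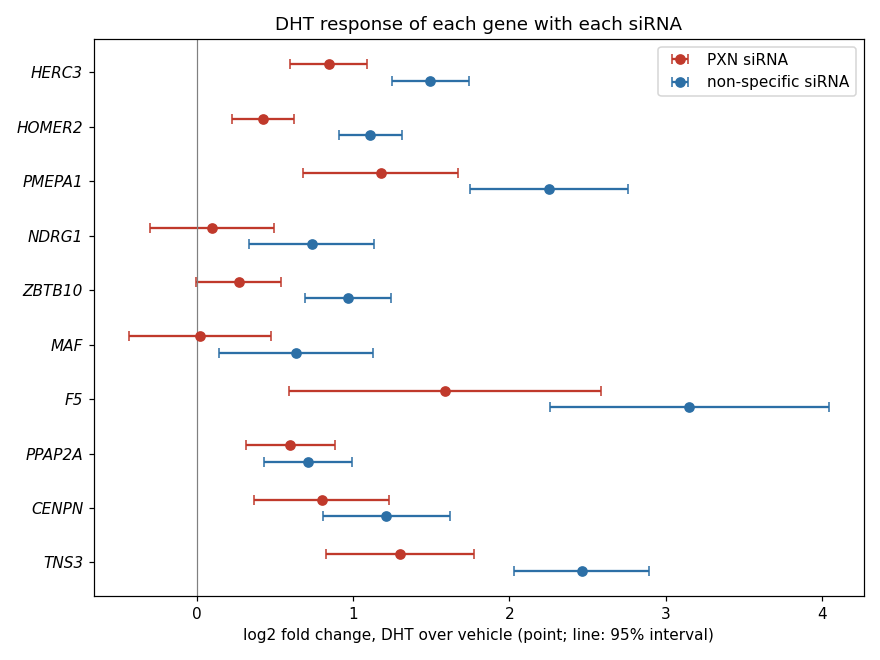
Log2 fold change of DHT over vehicle (horizontal axis) for each of the 10 genes with PXN siRNA and with non-specific siRNA; points are fitted values and lines the 95% interval. The fitted value with PXN siRNA lies left of that with non-specific siRNA for every gene, from 0.02 against 0.64 for MAF to 1.59 against 3.15 for F5.

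HERC3 encodes a HECT-domain ubiquitin ligase. It lies at chr4:88592423-88708542 on the plus strand (GENCODE 29, GRCh38), and its promoter is the last of the sequences printed. AC098582.1, a protein-coding gene on the same strand, shares 459 bases of exon with HERC3. No source here says how reads in that stretch were counted. HERC3 had 97.3, 114 and 120.2 CPM with DHT and 67.4, 57.7 and 59.3 CPM with vehicle in PXN siRNA cells. In non-specific siRNA cells it had 254, 316 and 343 CPM with DHT and 122, 99.3 and 103 CPM with vehicle. Each group was separate from its counterpart, and the PXN siRNA level with DHT stood at 102% of the non-specific level with vehicle. HERC3 rose with DHT in PXN siRNA cells (log2 fold change 0.84 ± 0.11, adjusted p 0.00489), where the fold was 1.80, against 2.82 in non-specific siRNA cells. Without PXN siRNA vehicle replicate 3 the adjusted p was 0.0545 at a log2 fold change of 0.82. It was lower with PXN siRNA than with non-specific siRNA under DHT (-1.46 ± 0.11, adjusted p 2.46e-07) and under vehicle (-0.81 ± 0.11, adjusted p 4.14e-05). The gain was 48.9 ± 7.43 CPM with PXN siRNA and 196 ± 27.1 CPM with non-specific siRNA (SE), or 24.9%.

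HOMER2 encodes a scaffold that binds proline-rich motifs of glutamate receptors, IP3 receptors and Shank proteins. The gene lies at chr15:82836946-82986153 on the minus strand. Its levels were 119, 127 and 129 CPM with DHT and 97.7, 87.6 and 93.5 CPM with vehicle in PXN siRNA cells. In non-specific siRNA cells they were 137, 169.7 and 189 CPM with DHT and 80.6, 73.9 and 74.9 CPM with vehicle. PXN siRNA thus stood above non-specific siRNA under vehicle and below it under DHT, with no overlap either way. Of all tested genes 27.3% lay above without overlap under vehicle and 30.4% below under DHT. The share of genes that did both was not counted. Both differences of HOMER2 passed the test, at a log2 fold change of 0.28 ± 0.09 under vehicle (adjusted p 0.0206) and -0.40 ± 0.09 under DHT (adjusted p 0.00197). The vehicle call was lost without PXN siRNA vehicle replicate 1 or 3 or non-specific siRNA vehicle replicate 2 or 3, with log2 fold changes of 0.23 to 0.26 and adjusted p of 0.0675 to 0.0979. The DHT fold was 1.34 with PXN siRNA (log2 0.43 ± 0.09, adjusted p 0.108, and 0.0126 with the replicate block) and 2.16 with non-specific siRNA. The gain was 31.9 ± 4.11 CPM with PXN siRNA and 88.7 ± 15.2 CPM with non-specific siRNA.

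PMEPA1 encodes a membrane protein that binds NEDD4-type ubiquitin ligases and holds receptor-activated SMADs away from TGF-beta receptors. Its gene, whose promoters carry the capitals printed here, lies at chr20:57648392-57711536 on the minus strand. PMEPA1 had 55.2, 97.2 and 100.5 CPM with DHT and 36.1, 38.5 and 37.2 CPM with vehicle in PXN siRNA cells. With non-specific siRNA its levels were 117, 218 and 241 CPM with DHT and 40.6, 41.5 and 38.6 CPM with vehicle. Replicate 1 was the lowest DHT library with both siRNAs, and the vehicle levels lay slightly below with PXN siRNA, without overlap and without passing (log2 fold change -0.11, 95% interval -0.61 to 0.39, adjusted p 0.717). PMEPA1 fell with PXN siRNA under DHT (-1.19 ± 0.23, adjusted p 0.000498). The DHT fold was 2.26 with PXN siRNA (adjusted p 0.0667, and 0.00135 with the replicate block) and 4.77 with non-specific siRNA. The gain was 47.0 ± 14.6 CPM with PXN siRNA and 152 ± 38.0 CPM with non-specific siRNA. NKILA, an antisense gene, shares 343 bases of exon with PMEPA1 on the other strand and averaged 7.99 CPM with PXN siRNA and DHT, 7.71 with non-specific siRNA and DHT, 6.65 with PXN siRNA and vehicle, and 4.03 with non-specific siRNA and vehicle. No source here says whether reads were counted by strand, so reads in that stretch cannot be told apart.

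NDRG1 encodes a cytoplasmic protein induced by androgen, hypoxia and metal stress. It had 123, 101 and 118 CPM with DHT and 118, 93.5 and 108 CPM with vehicle in PXN siRNA cells. Cells with non-specific siRNA had 141, 92.7 and 125 CPM with DHT and 99.2, 60.8 and 55.6 CPM with vehicle. The DHT and vehicle libraries overlapped with both siRNAs, and in PXN siRNA cells the log2 fold change was 0.10 (95% interval -0.30 to 0.50). NDRG1 had a higher vehicle level beside an almost equal DHT level: PXN siRNA stood at 148% of non-specific siRNA under vehicle and 95.4% under DHT. The vehicle difference passed (log2 fold change 0.57 ± 0.19, adjusted p 0.0206) but the libraries overlapped, and leaving out PXN siRNA vehicle replicate 1 or 3 or non-specific siRNA vehicle replicate 2 or 3 gave log2 fold changes of 0.40 to 0.54 with adjusted p of 0.0601 to 0.120. Under DHT the log2 fold change was -0.07 ± 0.19, and it was 0.04 with upper-quartile scaling.

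ZBTB10 encodes a zinc finger repressor that binds GC-rich DNA and competes with SP factors. It had 95.9, 109 and 120.0 CPM with DHT and 90.5, 85.9 and 93.6 CPM with vehicle in PXN siRNA cells. In non-specific siRNA cells it had 91.2, 127 and 147 CPM with DHT and 64.0, 60.0 and 62.4 CPM with vehicle. ZBTB10 rose with PXN siRNA under vehicle (log2 fold change 0.53 ± 0.13, adjusted p 0.00315), while the siRNAs overlapped under DHT at 89.2% of the non-specific mean (-0.17 ± 0.13, adjusted p 0.295). Leaving out non-specific siRNA DHT replicate 1 gave -0.35 under DHT with an adjusted p of 0.00453. The DHT fold was 1.20 with PXN siRNA (adjusted p 0.694) and 1.96 with non-specific siRNA.

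MAF encodes a basic leucine zipper transcription factor. Its gene lies at chr16:79585843-79600714 on the minus strand. MAF had 68.4, 42.5 and 54.2 CPM with DHT and 70.0, 38.7 and 54.0 CPM with vehicle in PXN siRNA cells. With non-specific siRNA its levels were 19.8, 20.0 and 27.9 CPM with DHT and 18.5, 12.4 and 12.7 CPM with vehicle. All PXN siRNA libraries lay above all non-specific siRNA libraries. Within a treatment such a separation upward held for 29.5% of all tested genes under DHT and 27.3% under vehicle. The share over both treatments together was not counted. MAF rose with PXN siRNA under DHT (log2 fold change 1.29 ± 0.22, adjusted p 0.000213) and under vehicle (1.90 ± 0.23, adjusted p 9.81e-06). DHT gave a log2 fold change of 0.02 in PXN siRNA cells (95% interval -0.43 to 0.47, adjusted p 0.996) and of 0.64 in non-specific siRNA cells. Its gain of 0.757 ± 11.7 CPM with PXN siRNA was smaller than its own error and changed sign without PXN siRNA vehicle replicate 2 (-7.03 CPM) or PXN siRNA DHT replicate 1 (-5.95 CPM), against 8.04 ± 3.34 CPM with non-specific siRNA.

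F5 encodes coagulation factor V, the cofactor of factor Xa in thrombin formation. The gene lies at chr1:169514166-169586588 on the minus strand. It was counted at 28 to 583 reads a library. F5 had 1.26, 3.63 and 3.67 CPM with DHT and 1.17, 0.754 and 0.915 CPM with vehicle in PXN siRNA cells. Cells with non-specific siRNA had 5.59, 15.1 and 17.3 CPM with DHT and 1.22, 1.76 and 1.27 CPM with vehicle. Replicate 1 again had the lowest DHT level with each siRNA. F5 fell with PXN siRNA under DHT (log2 fold change -2.15 ± 0.38, adjusted p 0.00029), and under vehicle the log2 fold change was -0.58 ± 0.51 (adjusted p 0.36). Without DHT replicate 1 of both siRNAs it was -0.60 with an adjusted p of 0.0264, and without replicate 1 of all 4 groups -0.87 with an adjusted p of 0.0110. The DHT fold was 3.01 with PXN siRNA (adjusted p 0.312, and 0.0249 with the replicate block) and 8.89 with non-specific siRNA.

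PPAP2A (PLPP1) encodes a cell-surface phosphatase that removes the phosphate of lysophosphatidic acid and related lipids. Its gene lies at chr5:55424854-55535050 on the minus strand. It had 87.6, 120.4 and 96.0 CPM with DHT and 59.8, 83.0 and 58.0 CPM with vehicle in PXN siRNA cells. In non-specific siRNA cells it had 293, 299.6 and 300.1 CPM with DHT and 199.5, 184 and 161 CPM with vehicle. The mean with DHT in PXN siRNA cells was 55.8% of the mean with vehicle in non-specific siRNA cells. PPAP2A fell with PXN siRNA under DHT (log2 fold change -1.55 ± 0.13, adjusted p 5.45e-07) and under vehicle (-1.44 ± 0.14, adjusted p 1.09e-06). Its DHT fold was 1.51 with PXN siRNA (adjusted p 0.119, and 0.0046 with the replicate block) and 1.64 with non-specific siRNA. PPAP2A was the gene whose folds stood closest, with a log2 difference of -0.11 (95% interval -0.51 to 0.29), while its gain was 34.4 ± 12.7 CPM with PXN siRNA and 116 ± 11.5 CPM with non-specific siRNA. MTREX, on the other strand, shares 481 bases of exon and averaged 65.8 CPM with PXN siRNA and DHT, 85.6 with non-specific siRNA and DHT, 71.4 with PXN siRNA and vehicle, and 100.6 with non-specific siRNA and vehicle.

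CENPN encodes a protein of the inner kinetochore that recognises CENP-A nucleosomes. Its gene lies at chr16:81006498-81033114 on the plus strand. CENPN had 19.2, 27.9 and 27.0 CPM with DHT and 12.6, 17.0 and 12.9 CPM with vehicle in PXN siRNA cells. With non-specific siRNA its levels were 58.1, 96.2 and 108 CPM with DHT and 37.3, 35.6 and 40.4 CPM with vehicle. The mean with PXN siRNA and DHT was 65.3% of the mean with non-specific siRNA and vehicle. CENPN fell with PXN siRNA under DHT (log2 fold change -1.83 ± 0.19, adjusted p 3.21e-06) and under vehicle (-1.41 ± 0.20, adjusted p 4.54e-05). Its DHT fold was 1.74 with PXN siRNA (adjusted p 0.201, and 0.00773 with the replicate block) and 2.32 with non-specific siRNA. CMC2 shares 457 bases of exon on the other strand and averaged 27.4 CPM with PXN siRNA and DHT, 49.8 with non-specific siRNA and DHT, 25.8 with PXN siRNA and vehicle, and 39.5 with non-specific siRNA and vehicle.

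TNS3 encodes tensin 3, which links integrin tails to actin in adhesions, and its gene lies at chr7:47275154-47582558 on the minus strand. It was counted at 17 to 125 reads a library, the lowest of the 10. TNS3 had 0.984, 1.39 and 1.27 CPM with DHT and 0.490, 0.458 and 0.523 CPM with vehicle in PXN siRNA cells. Cells with non-specific siRNA had 2.61, 3.46 and 3.33 CPM with DHT and 0.554, 0.622 and 0.518 CPM with vehicle. TNS3 rose with DHT in PXN siRNA cells (log2 fold change 1.30 ± 0.22, adjusted p 0.0322), a call that leaving out PXN siRNA vehicle replicate 1, 2 or 3 or PXN siRNA DHT replicate 2 or 3 ended, with log2 fold changes of 1.20 to 1.35 and adjusted p of 0.0594 to 0.185. It fell with PXN siRNA under DHT (-1.37 ± 0.18, adjusted p 2.42e-05), and under vehicle the log2 fold change was -0.20 ± 0.25.

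**Figure D3:**
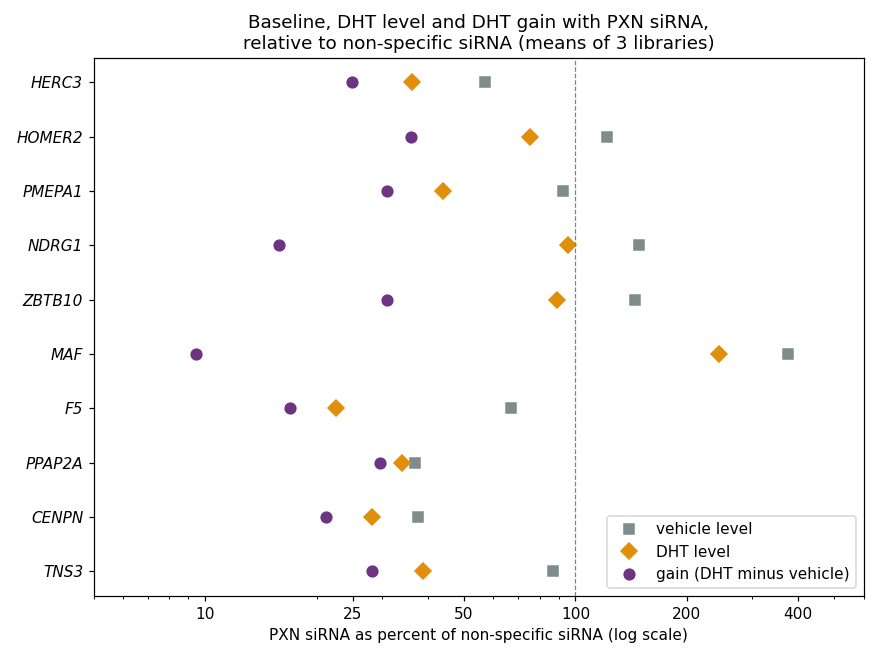
Level with vehicle, level with DHT and gain (DHT minus vehicle) with PXN siRNA as a percentage of the value with non-specific siRNA (horizontal axis, log scale), from means of 3 libraries. The gain is the leftmost point for every gene, from 15.8% for NDRG1 to 35.9% for HOMER2 in 9 genes, and at 9.41% for MAF, whose gain with PXN siRNA is smaller than its own error, while the vehicle level runs from 36.8% for PPAP2A to 374% for MAF.

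The levels with PXN siRNA were set against the non-specific siRNA libraries that chose the genes. High values with DHT and low values with vehicle there favour a fall under DHT and a rise under vehicle, so the counts and medians that follow are no independent sign of either. Under DHT 7 of the 10 fell, MAF rose and NDRG1 and ZBTB10 did not pass, against 25% of all genes higher and 26.7% lower. The median log2 fold change under DHT was -1.28 for the 10 genes and 0.03 for all tested genes, a distance that the choice of genes favours. Under vehicle HERC3, PPAP2A and CENPN fell and HOMER2, NDRG1, ZBTB10 and MAF rose, while PMEPA1, F5 and TNS3 did not pass, against 23.9% of all genes higher and 26.3% lower. The share of the 10 genes that passed under vehicle has to be read beside those backgrounds, where about as many genes rose as fell.

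**Figure D4:**
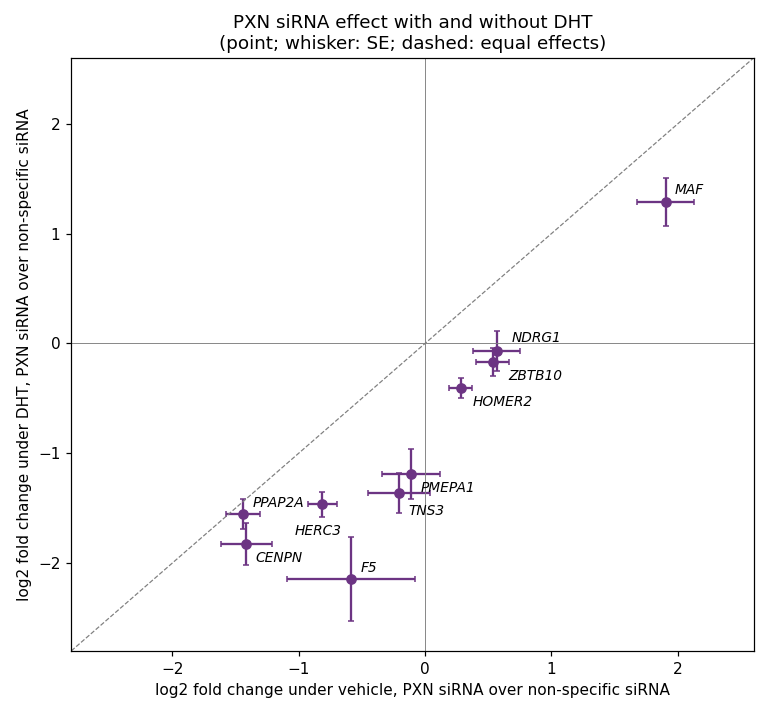
Log2 fold change of PXN siRNA over non-specific siRNA under vehicle (horizontal axis) and under DHT (vertical axis) for the 10 genes, with whiskers for the SE and a dashed line of equal effects. Every point lies below the dashed line, and HOMER2 stands at 0.28 under vehicle and -0.40 under DHT.

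The difference of the DHT responses was tested as an interaction in the same model. The log2 interaction was negative in 10 of 10 genes, from -1.56 ± 0.64 for F5 to -0.11 ± 0.19 for PPAP2A, with a median of -0.67 for the 10 genes and 0.01 for all tested genes. None of the 10 passed with edgeR without the replicate block and Benjamini-Hochberg adjustment over all genes, where 0% of genes passed upward and 0% downward. With the block HOMER2 and ZBTB10 passed, though the numbers were not taken to pair in this test. The values that follow are without the block. At an unadjusted p under 0.05 there were 778 genes of all tested and 7 of the 10, and the smallest adjusted p of any gene was 0.115. HOMER2 had the smallest p of the 10 (-0.69 ± 0.13, adjusted p 0.238), followed by HERC3 (-0.65 ± 0.16, adjusted p 0.527). DESeq2 called HOMER2 (adjusted p 0.00326), and limma-voom called 0 of the 10. Leaving out non-specific siRNA DHT replicate 1 let 4 pass, namely HERC3, HOMER2, PMEPA1 and ZBTB10. The non-specific siRNA libraries of this test are those that chose the genes.

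**Figure D5:**
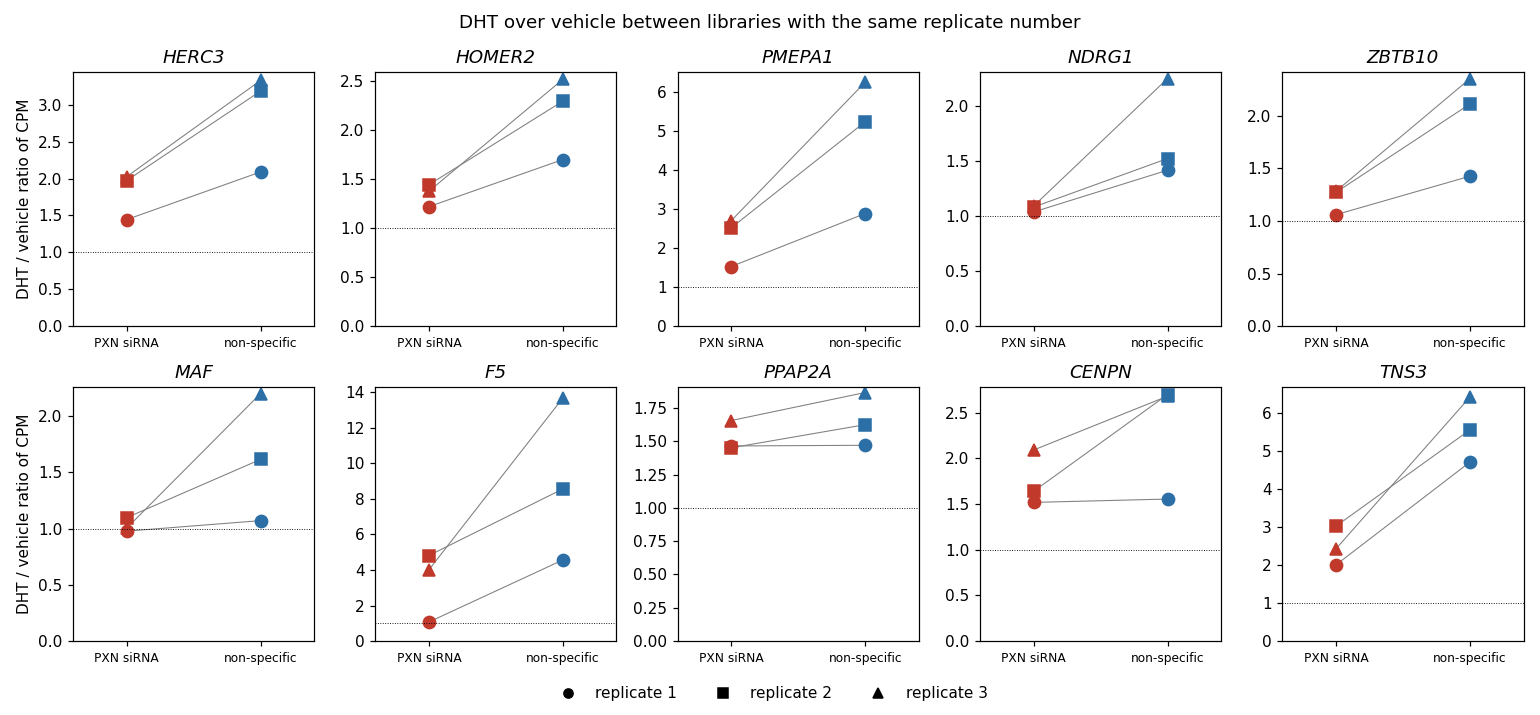
Ratio of CPM with DHT to CPM with vehicle (vertical axis, from 0) between libraries of the same replicate number, with PXN siRNA on the left and non-specific siRNA on the right of each panel, and lines joining the same number. All lines slope up to the right, and the ranges of the siRNAs do not overlap for HERC3, HOMER2, PMEPA1, NDRG1, ZBTB10 and TNS3. Ranges that lie lower with PXN siRNA without overlap occur for 8.14% of all genes with ratios. The ratios with non-specific siRNA are those the genes were chosen on.

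The ratios within a replicate number showed how far the response varied. For HERC3 they were 1.44, 1.97 and 2.02 with PXN siRNA and 2.09, 3.18 and 3.33 with non-specific siRNA, in the order of replicates 1, 2 and 3. For PMEPA1 they were 1.53, 2.52 and 2.70 with PXN siRNA and 2.89, 5.24 and 6.25 with non-specific siRNA. The library labelled replicate 1 had the lowest DHT level with both siRNAs in 8 of the 10 genes, in 38 of 60 other androgen-responsive genes (63.3%) and in 3507 of all 18468 tested genes (19.0%). The exceptions among the 10 were NDRG1 and MAF. Without replicate 1 of DHT with both siRNAs, 7 of the 10 rose with DHT in PXN siRNA cells and 4 passed the interaction. The ratio ranges overlapped between the siRNAs for MAF, F5, PPAP2A and CENPN, and lay lower with PXN siRNA without overlap for the other 6 of the 10 and for 8.14% of all genes with ratios.

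Per kilobase of GENCODE 29 exon, the levels with non-specific siRNA and DHT ran from PPAP2A at 148 CPM per kb through HERC3 at 43.6, PMEPA1 at 34.2 and CENPN at 24.5 to NDRG1 at 12.2, ZBTB10 at 11.9 and HOMER2 at 11.2. MAF at 3.23, F5 at 1.77 and TNS3 at 0.266 CPM per kb followed. NDRG1, ZBTB10 and HOMER2 differed by less than their spread between libraries. With PXN siRNA and DHT the level of MAF was 7.89 CPM per kb and that of CENPN 6.92, which differed by less than their spread between libraries.

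The 10 genes did not share one pattern over the 12 libraries. On the log2 CPM scale the closest pair was PMEPA1 and TNS3 (Pearson r = 0.979 over 12 libraries) and the least alike MAF and PPAP2A (r = -0.767), where all libraries share the 4 groups. Among all tested genes those most like HERC3 were STK39, a stress kinase (r = 0.991), GNMT, a glycine methyltransferase (r = 0.988), and TAOK3, a kinase (r = 0.984). Those most like HOMER2 were ZMIZ1, a transcriptional coregulator (r = 0.981), ANKH (r = 0.975) and CSGALNACT1 (r = 0.971). The closest gene to PMEPA1 was PKP1 (r = 0.997), to NDRG1 DNAJB14 (r = 0.956), to ZBTB10 RARB (r = 0.983), to MAF BCL2L1 (r = 0.993), to F5 RAB3B (r = 0.988), to PPAP2A OSBPL8 (r = 0.996), to CENPN MCCC2 (r = 0.995) and to TNS3 TMPRSS2 (r = 0.987). Under vehicle PKP1 averaged only 0.071 CPM with PXN siRNA and 0.085 CPM with non-specific siRNA. Its r thus rests partly on values near the floor.

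Among 60 other androgen-responsive genes, 8 rose with DHT in PXN siRNA cells and 0 fell (17 and 0 with the replicate block), among them BMPR1B, ELOVL5, HPGD, SLC45A3, STK39, TMPRSS2 and TRPM8. The median log2 fold change of the 60 was 0.13. Over all tested genes 0.184% rose and 0% fell in that contrast. None of the 60 passed the interaction by edgeR without the replicate block, and 7 were lower with it. With PXN siRNA 8 rose and 40 fell under DHT (median -0.65), and 15 rose and 31 fell under vehicle (median -0.30). The shares over all tested genes were 25% higher and 26.7% lower under DHT, and 23.9% and 26.3% under vehicle. BMPR1B, a BMP receptor, had 29.6 ± 0.608 CPM with PXN siRNA and 68.2 ± 4.28 CPM with non-specific siRNA under DHT, and AZGP1, a secreted glycoprotein, had 10.8 ± 0.942 and 27.2 ± 1.93 CPM in the same groups. RPS6KA3, a ribosomal S6 kinase, fell by 1.07 on the log2 scale with PXN siRNA under DHT (adjusted p 1.63e-07).

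The relatives and partners of the 10 genes moved in several directions with PXN siRNA. Over all tested genes 25% were higher and 26.7% lower under DHT, and 23.9% higher and 26.3% lower under vehicle. The counts of this list and of those that follow have to be read beside these shares. The HERC family lacking HERC3 had 1 of 5 higher and 0 lower under DHT (3 and 1 with the replicate block), and 4 and 0 under vehicle. HERC1, a giant HERC ligase, rose by 0.92 ± 0.08 on the log2 scale under DHT and 0.89 ± 0.08 under vehicle. Among 8 Homer partners 5 rose and 2 fell under DHT, and 4 rose and 3 fell under vehicle. ITPR1, an IP3 receptor, rose by 1.06 under both treatments, SHANK2 rose by 0.49 under DHT and 0.55 under vehicle, and HOMER1 fell by 0.64 under DHT and 0.70 under vehicle. Of 10 genes of SMAD signalling 6 rose and 2 fell under DHT, and 5 rose and 1 fell under vehicle (5 and 2 with the block). TGFBR2, the type II TGF-beta receptor, had 4.53 ± 1.17 CPM with PXN siRNA and 1.66 ± 0.478 CPM with non-specific siRNA under DHT.

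Of 3 other NDRG genes NDRG4 rose and NDRG2 and NDRG3 fell under both treatments. Of 3 SP factors 1 rose and 1 fell under DHT (2 and 1 with the replicate block, 0 and 0 with DESeq2's size factors, 2 and 0 with upper-quartile scaling), and 0 passed under vehicle (1 higher with the block). Of 8 MAF relatives and partners 4 rose and 1 fell under DHT, and 3 rose and 1 fell under vehicle.

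Of 9 partners of factor V 6 rose and 3 fell under DHT, and 6 rose and 2 fell under vehicle. MCFD2, which with LMAN1 forms the cargo receptor that carries factor V out of the endoplasmic reticulum, had 34.8 ± 1.48 CPM with PXN siRNA and 114 ± 2.65 CPM with non-specific siRNA under DHT. LMAN1 fell by 0.82 under DHT and 0.61 under vehicle on the log2 scale. Of 10 lipid phosphatases and LPA receptors 4 rose and 4 fell under DHT, and 4 rose and 3 fell under vehicle, while 0 passed for DHT in PXN siRNA cells (2 higher with the block). LPAR3, an LPA receptor, had 23.2 ± 8.24 CPM with PXN siRNA and 61.7 ± 13.5 CPM with non-specific siRNA under DHT. Of 9 tensins and partners 2 rose and 2 fell under DHT, and 1 rose and 1 fell under vehicle (2 and 1 with the block). TNS2 rose by 0.50 under DHT and 0.46 under vehicle, and VCL, vinculin, fell by 0.54 under DHT and 0.29 under vehicle.

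The inner kinetochore genes fell nearly throughout. Of 20 genes, 18 fell and CENPT rose under DHT (median -1.08), and 18 fell under vehicle with 0 higher (median -1.04). CENPA, the centromeric histone, had 2.20 ± 0.271 CPM with PXN siRNA and 7.52 ± 1.04 CPM with non-specific siRNA under DHT, and 1.54 ± 0.319 and 8.18 ± 1.18 CPM in the same order under vehicle. In PXN siRNA cells 0 of the 20 passed for DHT, where CENPN had an adjusted p of 0.201.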

How the data were processed

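Poly(A) RNA of 12 LNCaP samples was extracted with RNeasy Plus kits and made into TruSeq Stranded mRNA libraries, per the labels' protocols. The authors deposited raw read counts by gene symbol, from featureCounts per the submitters' processing notes, which also name Trimmomatic 0.32, STAR 2.4.2a, Subread 1.5.0p3 and GRCh38. No source here gives the annotation, the strand setting or the handling of multiply mapped reads, which limits values of overlapping genes. Each sample was grouped by its own label.

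Counts were tested in R 4.3.3 with edgeR 4.0.16: filterByExpr over 4 groups (18468 of 36137 genes kept), TMM scaling, a model of 4 group means over the 12 libraries with 8 residual degrees of freedom, the quasi-likelihood test and Benjamini-Hochberg adjustment over all tested genes, with calls at an adjusted p under 0.05. The SE was obtained as the absolute log2 fold change over the root of F, and the 95% intervals use the test's degrees of freedom. The SE of a gain comes from the SDs of both groups. The 10 genes, the gene lists, the tests and the rule for naming genes (from each list, the 3 of lowest p, and the 3 genes most like HERC3 and HOMER2 and 1 for each other gene by Pearson correlation of log2(CPM + 0.5) over all other tested genes) were chosen with earlier results of these data known. Nothing in the labels says that replicates came from separate cultures, so the p-values cover only how these samples vary, possibly for technical reasons. No replicate pair agreed within sampling noise (chi-square per gene 6.51 to 27.6).

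The replicate numbers are shared by the groups, and deviations from the group means correlated between equal numbers at 0.152 to 0.439 (DHT with PXN siRNA), 0.125 to 0.395 (PXN siRNA under DHT) and 0.187 to 0.304 (PXN siRNA under vehicle), all over the limit of 0.1, so the numbers were taken to pair these groups. For the interaction 17 of 18 pairs passed the limit, so its numbers were not taken to pair. In simulated counts with 200 changed genes, DHT with PXN siRNA recovered 82% of changes of 1.5-fold, 96% of 2-fold and 100% of 3-fold and 4-fold, with 8 false calls among 18038 genes tested. The simulated counts had only the spread that the fitted trend gives for a gene's level, and no effect shared by replicate numbers. These shares therefore do not carry over to genes with a wider spread. In the real libraries F5 did not pass at a fold of 3.01 (adjusted p 0.312 by edgeR). Alternatives used DESeq2 1.42.0 and limma 3.58.1. Genes were placed with GENCODE 29, which may differ from the authors' annotation. Results for some genes are not reported here.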

Additional observations from a re-analysis of the deposited data

Results flagged for a closer look

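HOMER2 stood higher with PXN siRNA under vehicle and lower under DHT. Every PXN siRNA library lay above every non-specific siRNA library under vehicle, and every one lay below under DHT. The vehicle call (adjusted p 0.0206 by edgeR) was lost without PXN siRNA vehicle replicate 1 or 3 or non-specific siRNA vehicle replicate 2 or 3. The adjusted p was then 0.0675 to 0.0979. Of all tested genes 27.3% lay above without overlap under vehicle and 30.4% below under DHT. The share of genes that did both was not counted, so how rare the crossing is cannot be said. The log2 interaction was -0.69 ± 0.13. Its adjusted p was 0.238 by edgeR without the replicate block, 0.0218 with the block and 0.00326 by DESeq2. The non-specific siRNA libraries in this comparison also chose HOMER2 as androgen-induced, which favours a negative interaction.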

How the results depend on the processing

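Of the counts and medians over the 10 genes, 185 values under alternatives were classed as the same as the reported one and 29 as moved. The moved values include medians of 1.33 and 1.36 against 1.16. For DHT in PXN siRNA cells, 2 of the 10 rose as reported. The number was 7 without the low-count filter, 7 with the replicate block, 5 with DESeq2, 1 with limma-voom, 1 when only the groups compared were fitted, 1 at an adjusted p under 0.01, and 0 to 5 when single libraries were left out. The 0 came without PXN siRNA vehicle replicate 3 and the 5 without non-specific siRNA DHT replicate 1. For the interaction, 0 of the 10 passed as reported, against 4 without the filter, 2 with the replicate block, 1 with DESeq2 and 0 to 4 when single libraries were left out. Under vehicle, 4 rose with PXN siRNA as reported, against 2 at an adjusted p under 0.01 and 2 to 4 when single libraries were left out, where HOMER2 and NDRG1 were lost. After the data had been seen, DHT replicate 1 of both siRNAs was left out, which gave 7 for DHT in PXN siRNA cells and 4 for the interaction, and replicate 1 of all 4 groups was left out, which gave 6 and 4. The number of genes with a lower gain under PXN siRNA, 10 as reported, was 9 to 10 when single libraries were left out. The median DHT log2 fold change with non-specific siRNA, 1.16 as reported, was 1.02 to 1.33 when single libraries were left out, 1.33 without DHT replicate 1 of both siRNAs and 1.36 without replicate 1 of all groups. For the interaction not every pair of equal numbers passed the limit, so its samples share only a number. The block then gave HOMER2 at -0.68 (adjusted p 0.0218) and ZBTB10 at -0.69 (adjusted p 0.0448), and 7 of the 60 other androgen-responsive genes lower. The replicate block changed no other call among the 10 genes than those printed.

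Signs changed for values that had not passed. NDRG1 with PXN siRNA under DHT was 0.036 with upper-quartile scaling, and -0.25 (without non-specific siRNA DHT replicate 2) to 0.047 (without its replicate 1) when single libraries were left out. MAF with DHT in PXN siRNA cells was -0.17 without PXN siRNA vehicle replicate 2, without PXN siRNA DHT replicate 1 and without DHT replicate 1 of both siRNAs, with gains of -7.03, -5.95 and -6.01 CPM, and reached 0.25 and 8.70 CPM without PXN siRNA vehicle replicate 1. The PPAP2A interaction ran from -0.26 to 0.063, the highest without PXN siRNA vehicle replicate 2. The cause was not tested. Upper-quartile scaling moved the median of all genes to 0.13 for PXN siRNA under DHT and 0.12 under vehicle, with 60.7% and 60.2% of calls higher, against 48.3% and 47.7% as reported. With it the 60 other androgen-responsive genes had 12 higher and 37 lower under DHT and 17 and 23 under vehicle. At 17 to 125 counts for TNS3 and 28 to 583 for F5, counting error limits small differences of these genes.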
